A study of Mus musculus with 2 samples.

Results

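Collagen chain genes were the probe sets that the array annotation paired with a single gene whose symbol has the form Col, a type number, a and a chain number, such as Col4a1. This gave 82 of 45101 probe sets and 42 of 18194 genes. The rule used symbols and no measured value, but it was set with earlier results of these data known. The RNA came from cerebrum at postnatal day 14 (P14) of lag mutant and wild-type littermate mice, and each genotype had 1 Affymetrix mouse array. The number of mice pooled into either RNA is not known. The lag mutation, named laggard, is a spontaneous recessive change at a splice acceptor site of Kif14, a kinesin gene that acts in cytokinesis. It arose on a mixed background of several inbred strains, and heterozygous carriers were repeatedly backcrossed to C57BL/6J to place it on that background. The strain of the DNA around Kif14 was not typed here.

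Collagens are secreted or membrane proteins whose chains wind around each other into a helix. Fibrillar collagens form the banded fibers of connective tissue. Type IV chains form the sheet-like network of basement membranes, and other collagens coat fibers, form beaded filaments or span the cell membrane. In brain, interstitial collagens are largely made by fibroblasts of the meninges and around large vessels, whereas type IV collagen lines blood vessels and the pial surface. Some members are made by neurons or glia.

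Levels are MAS5 signals, linear intensities scaled by the authors over the whole array. A background level of 49.1 was used on both arrays. It is the 95th percentile, on the array where that was higher, of 150 probe sets for olfactory, taste and vomeronasal receptors, keratin-associated proteins and beta-defensins. Each gene was represented by the probe set whose mean signal was highest, and signals under the level were raised to it before the log2 ratio of lag mutant over wild-type was taken. Signals of different genes come from different probes and are not compared with each other. The median signal over all probe sets was 98.3 on the mutant and 104.5 on the wild-type array, and the 3′ to 5′ ratio of the Actb control was 1.38 in the mutant and 1.55 in the wild-type. Kif14 itself read 0.733 in the mutant and 6.85 in the wild-type, both under the level, so it does not check the labels. Markers of neurons and astrocytes, fitting the labelled tissue, were all above the level, with the synaptic gene Snap25 at 16408 in the mutant and 15349 in the wild-type. With 1 array per genotype there is no replicate, no test and no p-value, and each difference describes these arrays.

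Collagen signals were mostly higher in the mutant. Of the 42 genes, 38 lay above the level on at least 1 array, 36 of them on both. Among the 38, 26 had a higher and 12 a lower signal in the mutant, with a median log2 ratio of 0.25. Over all 13895 genes above the level, 52.0% were higher and the median was 0.01. The differences were modest: 2 collagen genes were at least 2-fold higher, against 0.748% of all genes, and none was at least 2-fold lower, against 1.02% of all genes. These shares stand for 104 and 142 genes, or 140 and 114 when both arrays were scaled to the same median instead. At 1.5-fold, 10 were higher, against 4.27% of all genes, and 2 were lower, against 3.54%. Col4a3 entered the 38 through the mutant array alone and Col20a1 through the wild-type array alone, which fixed the direction of each. Col4a3 is also among the 10 genes at least 1.5-fold higher. Col2a1, Col6a5, Col10a1 and Col17a1 lay under the level on both arrays, with signals between 3.23 and 38.5.

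Brightness bears on how these counts read, since ratios of dim genes scatter more widely. The SD of the log2 ratio across genes was 0.48 for 3313 genes with a mean signal of 50 to 200 and 0.31 for 10112 genes of at least 200. Of 23 collagen genes in the brighter range, 18 were higher in the mutant, 6 of them by at least 1.5-fold, where 2.04% of all such genes were. In that range 1 collagen gene was at least 1.5-fold lower, where 2.13% of all genes were, and the collagen median was 0.26. Of all 10112 genes in the brighter range, 5052 were higher, with a median of -0.0004. In the dimmer range the direction of the collagen genes was close to that of all genes. Of 14 such collagen genes, 8 were higher in the mutant, with a median of 0.11. Of all 3313 genes in this range, 1886 were higher, with a median of 0.06. At least 1.5-fold higher were 4 of the 14, where 11.5% of all such genes were. Col4a3, above the level on the mutant array alone, is among the 4. The 2 collagen genes past 2-fold also lay here, where 2.17% of genes passed that fold.

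**Figure D1:**
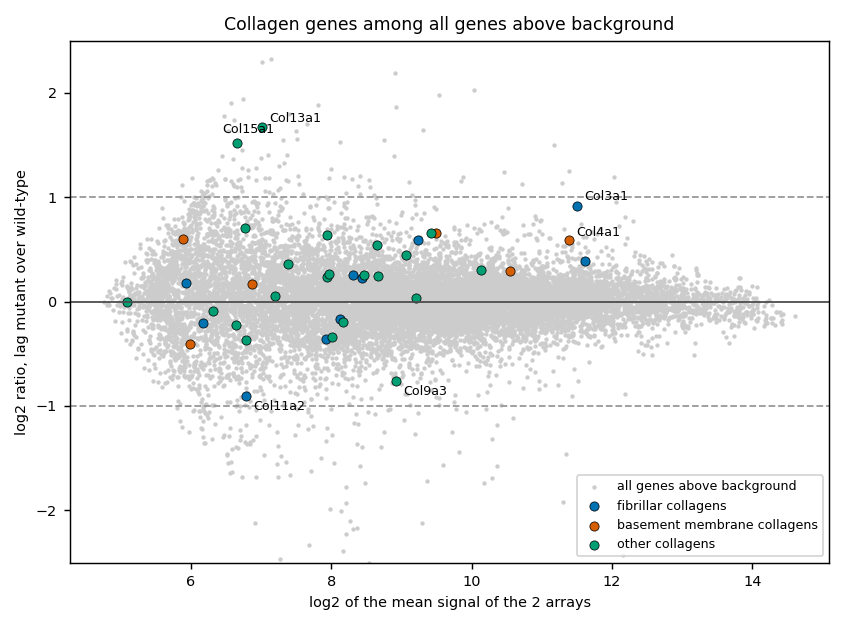
Log2 of the mutant signal over the wild-type signal against the log2 of the mean signal of the 2 arrays, for all genes above the background level (grey) and for the 38 collagen genes (colored by class); dashed lines mark 2-fold. Col13a1 and Col15a1 lie above the upper line at low signal, Col3a1 lies just under it at high signal, and 18 genes fall beyond the plotted 2.5 on the log2 scale.

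Col13a1 had the highest ratio of the family. Its single probe set read 197.5 in the mutant and 62.0 in the wild-type, 3.18-fold higher. The gene encodes a transmembrane collagen found at cell adhesions and the neuromuscular junction. Col15a1, which encodes a collagen of the basement membrane zone of vessels and muscle, read 149 in the mutant and 51.9 in the wild-type, 2.88-fold higher, also by a single probe set. The wild-type signals of both lay close to the background level. The bright gene with the highest ratio was Col3a1, described with the fibrillar chains, and the lowest ratio was that of Col11a2.

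Sequence before the start sites is shown for examples in both directions: Col13a1, the gene with the highest ratio, and Col3a1 and Col1a2, fibrillar chains of bright signal, from those higher in the mutant, and Col9a2 and Col11a1, of types IX and XI, from those lower. They were chosen after the values were seen and are not a sample of either direction. Each stretch is RefSeq sequence of GRCm38.p6, written 5′ to 3′ along the gene's strand. It ends at the base before the annotated gene, so those of Col13a1 and Col11a1, where the window reaches into the gene, are 152 and 189 bases long and the others 250. Capitals mark the TATA box TATAAA, the CCAAT box CCAAT, which NF-Y binds, and the GC box GGGCGG, which Sp1 binds, on either strand.
Col13a1 (chr10:61979207-61979358, minus strand): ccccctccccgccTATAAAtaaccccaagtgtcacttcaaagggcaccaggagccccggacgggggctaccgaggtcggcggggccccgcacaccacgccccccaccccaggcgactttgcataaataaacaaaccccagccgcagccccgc
Col3a1 (chr1:45311288-45311537, plus strand): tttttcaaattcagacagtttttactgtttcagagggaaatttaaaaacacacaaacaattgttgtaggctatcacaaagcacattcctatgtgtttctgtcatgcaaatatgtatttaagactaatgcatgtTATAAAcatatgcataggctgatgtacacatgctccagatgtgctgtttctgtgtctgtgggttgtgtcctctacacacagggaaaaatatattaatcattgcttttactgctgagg
Col1a2 (chr6:4505368-4505617, plus strand): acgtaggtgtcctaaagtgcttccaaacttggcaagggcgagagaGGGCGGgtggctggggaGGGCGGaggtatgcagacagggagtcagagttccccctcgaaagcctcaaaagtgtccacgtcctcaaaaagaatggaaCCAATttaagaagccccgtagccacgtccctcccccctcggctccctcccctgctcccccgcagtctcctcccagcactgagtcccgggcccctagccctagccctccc
Col9a2 (chr4:121039316-121039565, plus strand): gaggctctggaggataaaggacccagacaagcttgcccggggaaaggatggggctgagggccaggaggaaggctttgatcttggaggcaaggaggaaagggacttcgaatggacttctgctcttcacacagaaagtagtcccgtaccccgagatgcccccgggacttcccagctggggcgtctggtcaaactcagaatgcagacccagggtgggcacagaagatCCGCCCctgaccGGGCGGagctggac
Col11a1 (chr3:114030290-114030478, plus strand): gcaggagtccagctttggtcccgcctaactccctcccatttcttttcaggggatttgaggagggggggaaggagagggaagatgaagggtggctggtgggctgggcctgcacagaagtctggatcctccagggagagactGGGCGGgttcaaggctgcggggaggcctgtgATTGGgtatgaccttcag

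Col13a1 and Col3a1 each held a TATA box, while the stretches of Col1a2, Col9a2 and Col11a1 held GC boxes and no TATA box. Across the family, the letters were searched in the whole 250 bases before the start of each RefSeq window, also where that part reaches into the annotated gene. RefSeq windows matched 33 of the 42 genes, in 36 windows. A GC box was present in 58.3% of collagen windows, against 32.7% of all 32851 windows. The share was 59.1% of 22 windows of genes higher in the mutant and 63.6% of 11 windows of genes lower in it. TATA boxes were in 13.9% of collagen windows and 12.4% of all windows, and CCAAT boxes in 36.1% and 33.8%. By direction, TATA boxes were in 9.09% of the windows of genes higher in the mutant and 9.09% of those lower, and CCAAT boxes in 31.8% and 45.5%, so the contrast in TATA boxes among the printed examples was not present over the windows of both directions. Matches of these motifs may overlap one another, and a match is a description of the letters alone.

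Among fibrillar collagens, the chains of types I, III and V were mostly higher in the mutant and those of type XI lower. Col3a1, the chain of type III collagen of vessels and meninges, read 3779 in the mutant and 1999 in the wild-type, 1.89-fold higher, and 516 and 208 by its other probe set, 2.48-fold. Col1a2 read 3555 in the mutant and 2711 in the wild-type, 1.31-fold. Its partner chain in type I collagen, Col1a1, read 373 in the mutant and 319 in the wild-type, 1.17-fold, and 115 and 63.2 by its dimmer probe set, 1.82-fold. The size of the Col1a1 difference thus depended on the probe set. Col5a2, which encodes a chain of the type V collagen that nucleates type I fibers, read 722 in the mutant and 481 in the wild-type, a log2 ratio of 0.59. Col5a1 read 345 and 288, and the dim Col5a3 had the opposite direction, at 66.8 in the mutant and 76.9 in the wild-type. Over the 6 chains of types I, III and V, a grouping made after the values were seen, 5 were higher and the median log2 ratio was 0.32.

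Col11a2 was the member with the lowest ratio. Its probe set read 76.5 in the mutant and 143 in the wild-type, 1.87-fold lower. Col11a1, the other type XI chain on the array, read 213 in the mutant and 273 in the wild-type, 1.28-fold lower, and 235 and 243 by its other probe set. Type XI collagen limits the width of type II fibers in cartilage. Of the remaining fibrillar genes, Col27a1 read 263 in the mutant and 295 in the wild-type, and Col24a1, near the level, 64.9 and 57.5. The fibrillar class as a whole had 10 measured genes, 6 of them higher, with a median of 0.20. Its range, from -0.90 to 0.92, spanned almost 2-fold either way.

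**Figure D2:**
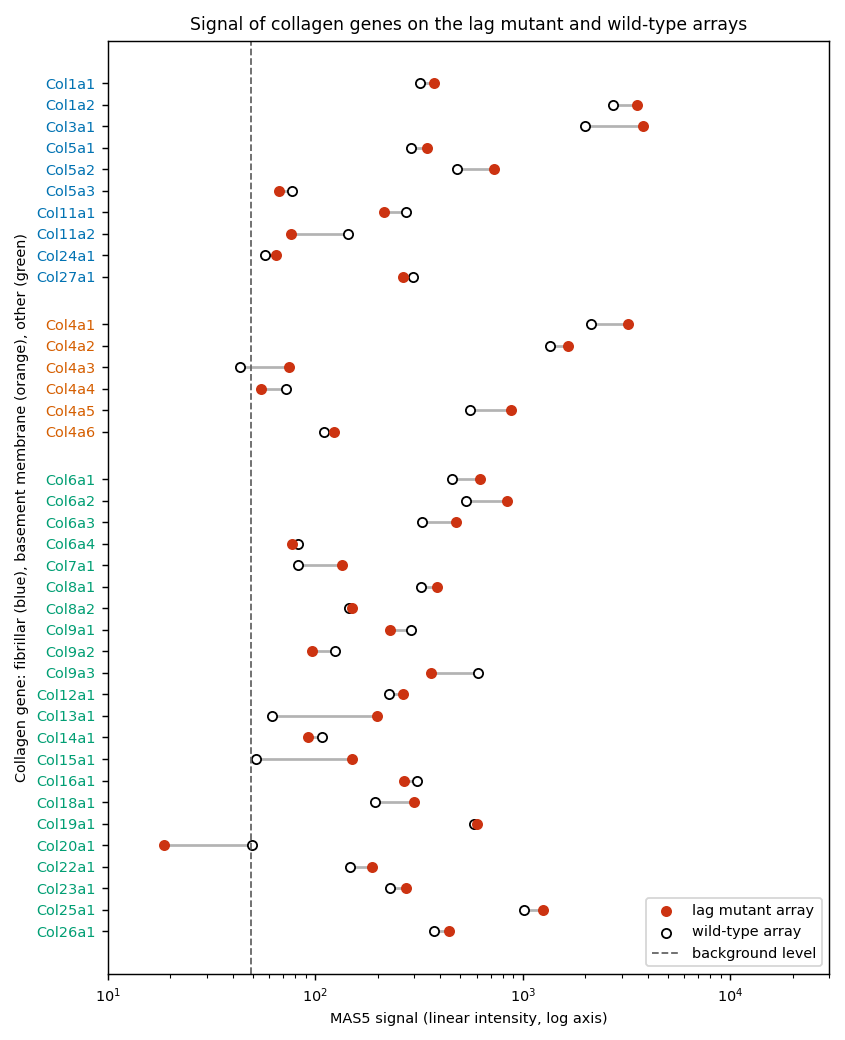
MAS5 signal of the 38 collagen genes above the background level (dashed line) on the lag mutant array (red) and the wild-type array (open), 1 gene per row on a log axis, with gene names colored by class. Red points lie to the right for 26 genes, among them Col1a2, Col3a1, Col4a1 and Col6a2, and to the left for Col9a1, Col9a2, Col9a3, Col11a1 and Col11a2.

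Basement membrane collagens of type IV had the highest median of the 3 classes, 0.44 over 6 genes, with 5 of them higher in the mutant. Their ratios ranged from -0.40 to 0.65. Col4a3 entered the 5 through the mutant array alone, which fixed its direction, and the median depends on it. The other ratios were 0.65, 0.59, 0.29, 0.17 and -0.40, with 0.29 in the middle, close to the median of the other collagens, 0.25. With so few genes the order of the 3 class medians is a description only. Col4a1 and Col4a2 encode the chains of the network found in nearly all basement membranes, including those of brain vessels. Col4a1 read 3218 in the mutant and 2131 in the wild-type, 1.51-fold higher, and 687 and 366 by its other probe set, 1.88-fold. Col4a2 read 1654 in the mutant and 1351 in the wild-type, 1.22-fold. Col4a5, whose chain also serves basement membranes of kidney and smooth muscle, read 879 in the mutant and 558 in the wild-type, 1.57-fold. Col4a6 differed less, at 123 in the mutant and 110 in the wild-type. Col4a3 and Col4a4, which join Col4a5 in the kidney glomerulus, were dim and diverged. Col4a3 read 74.5 in the mutant and 43.4 in the wild-type, under the level, at least 1.52-fold higher. The other Col4a3 probe set was under the level on both arrays, at 6.62 in the mutant and 40.0 in the wild-type. Col4a4 read 54.8 in the mutant and 72.4 in the wild-type, 1.32-fold lower.

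Type IV genes lie head to head in pairs, Col4a1 with Col4a2, Col4a3 with Col4a4 and Col4a5 with Col4a6, by their order in RefSeq GRCm38.p6. The windows around the starts of Col4a1 and Col4a2 share 78 bases. Log2 ratios within the pairs were 0.59 for Col4a1 and 0.29 for Col4a2, 0.65 for Col4a5 and 0.17 for Col4a6, and 0.60 for Col4a3 and -0.40 for Col4a4. Other neighbours were Col3a1 with Col5a2, at 0.92 and 0.59, and Col6a1 with Col6a2, at 0.44 and 0.66. Neighbouring Col9a1 and Col19a1 had ratios of -0.34 and 0.04. On chromosome 1, which also carries Kif14, there were 7 members, 5 of them higher and 2 lower in the mutant.

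Other collagens differed by family. Of the 4 measured chains of type VI, a beaded filament of fibroblasts and vessel walls, 3 were higher and 1 lower in the mutant. Col6a2 read 841 in the mutant and 533 in the wild-type, 1.58-fold higher. Col6a3 read 476 in the mutant and 327 in the wild-type, 1.46-fold, and Col6a1 618 and 454, 1.36-fold. Col6a4, near the level, read 77.1 in the mutant and 82.0 in the wild-type. Col18a1, the source of endostatin and like Col15a1 a collagen of the basement membrane zone, read 300.2 in the mutant and 193 in the wild-type, 1.55-fold, and 216 and 164 by its other probe set. Col7a1, of the anchoring fibers of skin, read 135 in the mutant and 82.8 in the wild-type, 1.63-fold.

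All 3 type IX chains, which decorate type II fibers in cartilage, were lower in the mutant. Col9a3 read 360.3 in the mutant and 608 in the wild-type, 1.69-fold lower, and 307 and 468 by another probe set, 1.53-fold lower. Col9a2 read 95.9 in the mutant and 124 in the wild-type, 1.29-fold lower, and Col9a1 229 and 289, 1.26-fold lower. Together with type XI, and grouped after the values were seen, all 5 measured chains of types IX and XI were lower, with a median of -0.37, while their fiber partner Col2a1 read 5.12 in the mutant and 38.5 in the wild-type, under the level on both arrays. Col20a1, a fiber-associated chain, read 18.7 in the mutant and 49.3 in the wild-type, with the wild-type value at the level, so no fold is given.

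The remaining members differed little by their brightest probe sets. Of the neuronal members, Col25a1, a transmembrane collagen first found in amyloid plaques, read 1247 in the mutant and 1008 in the wild-type, 1.24-fold higher, and Col19a1, made by some cortical and hippocampal interneurons, read 599 and 583. Col23a1, a further transmembrane chain, read 274 in the mutant and 229 in the wild-type. Col22a1, known from tissue junctions such as that of muscle and tendon, read 188 in the mutant and 146 in the wild-type, and Col26a1 442 and 373. Col8a1 and Col8a2, of the network under endothelia, read 384 and 150.0 in the mutant and 322 and 144 in the wild-type. Among chains that bind to fiber surfaces, Col12a1 read 265 in the mutant and 226 in the wild-type, Col16a1 268 and 308, and Col14a1 92.5 and 108. Over the 9 measured fiber-associated genes 3 were higher and 6 lower, with a median of -0.20.

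Probe sets of a gene mostly had the same direction. Of 61 collagen probe sets above the level on at least 1 array, 57 were above it on both. Of the 61, 42 were higher and 19 lower in the mutant, with a median log2 ratio of 0.23. The median over all 25234 such probe sets was 0.01. Of 21 genes with at least 2 such probe sets, 18 had all of them in the same direction. The same share over all genes was not computed. Among the 18, Col25a1 and Col4a4 each had a probe set above the level on 1 array alone, which fixed the direction of that probe set. The exceptions were Col12a1, Col14a1 and Col19a1, whose probe sets ranged from -0.03 to 0.23, from -0.22 to 0.12 and from -0.0014 to 0.039. For some genes the size differed by probe set. Besides Col1a1, Col5a2 was 1.13-fold higher by its dimmer probe set, at 380 in the mutant and 336 in the wild-type. Col22a1 was 1.39-fold higher by a dimmer probe set, at 112 in the mutant and 80.3 in the wild-type. By its dimmest, near the level, Col22a1 was 1.55-fold higher, at 76.5 and 49.4. Col13a1, Col15a1, Col11a2 and Col7a1 are among the 15 genes with a single probe set, so no further probe set bears on their ratios.

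**Figure D3:**
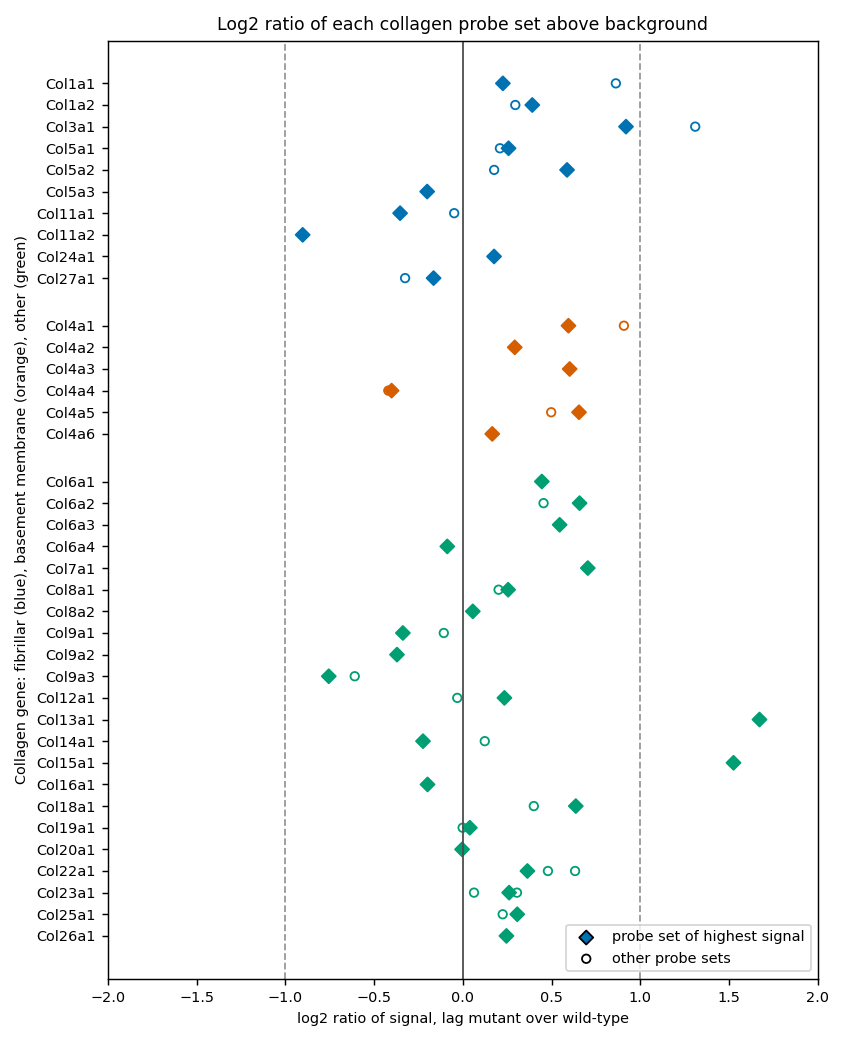
Log2 of the mutant signal over the wild-type signal for each of the 61 collagen probe sets above the background level on at least 1 array, 1 gene per row and colored by class; diamonds are the brightest probe set of a gene, circles its other probe sets, and dashed lines mark 2-fold. Every probe set of Col1a2, Col3a1, Col4a1, Col4a5, Col5a1, Col6a2 and Col18a1 lies to the right of 0 and every one of Col9a1, Col9a3, Col11a1 and Col27a1 to the left.

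Genes for the enzymes and chaperones that act on new collagen chains were mostly slightly lower. Of 18 measured modifying enzymes and chaperones, 6 were higher and 12 lower, none by 2-fold, with a median of -0.11. Sparc, a collagen-binding protein made by astrocytes and vessels, read 6400.0 in the mutant and 5843 in the wild-type. Ppib, a prolyl isomerase, read 5032 in the mutant and 5562 in the wild-type, and P4hb, a subunit of prolyl 4-hydroxylase, 3365 and 3489. Serpinh1, the collagen chaperone HSP47, named after its value was seen, read 1094 in the mutant and 1201 in the wild-type. Of 9 genes for processing and crosslinking, 4 were higher and 5 lower, with a median of -0.09. The highest ratio among them was that of Pcolce, which enhances removal of the propeptides of fibrillar collagens, at 824 in the mutant and 457 in the wild-type. Adamts3, a propeptidase, read 1045 in the mutant and 1029 in the wild-type, and Pxdn, which crosslinks type IV collagen, 776 and 959.

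Collagen receptors differed in both directions, with 6 of 10 higher and a median of 0.10. Ddr1, a receptor tyrosine kinase, read 2628 in the mutant and 2355 in the wild-type, Itgav 2160 and 2231, and Itgb1, the shared beta chain of collagen-binding integrins, 996 and 1014. Adgrg1, a brain receptor for type III collagen named after its value was seen, read 388 in the mutant and 572 in the wild-type. Its other probe set had a log2 ratio of 0.03, so its probe sets differ in direction. Those of Ddr1 did too, with its 7 others between -0.56 and 0.59.

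Other matrix genes were more often higher. Of 16 laminins and further basement membrane genes, 11 were higher and 5 lower, with a median of 0.23. Lama1, a laminin chain of the pial basement membrane, was 2.23-fold higher, at 230.4 in the mutant and 103 in the wild-type, and Nid1, a linker of laminin and type IV collagen, read 1706 and 1348. Agrn read 2519 in the mutant and 3002 in the wild-type, and Dag1, a laminin receptor, 2391 and 2376, with its 3 other probe sets between -0.40 and 0.27 on the log2 scale. Among 9 collagenases, gelatinases and inhibitors, 7 were higher, with a median of 0.21. Ctsk, a collagen-degrading cathepsin, read 437 in the mutant and 194 in the wild-type, 2.26-fold higher. The inhibitors Timp2, Timp3 and Timp4 differed less by their brightest probe sets. Timp2 read 6188 in the mutant and 5294 in the wild-type, Timp3 1453 and 1252, and Timp4 1044 and 1172. The 3 other probe sets of Timp3 ranged from -0.75 to 0.28 on the log2 scale.

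Of 15 genes for proteins that sit on collagen fibers or in the surrounding matrix, 10 were higher, with a median of 0.38. Tgfbi, a collagen-binding matrix protein, was 3.65-fold higher, at 763 in the mutant and 209 in the wild-type, and Lum, a proteoglycan of collagen fibers, 2.03-fold, at 526 and 259. Dcn, a further such proteoglycan, read 2453 in the mutant and 1391 in the wild-type, and Bgn 951 and 730.0. The other 5 were lower, among them Fn1, fibronectin, at 1550.0 in the mutant and 1847 in the wild-type. Its other probe set had a log2 ratio of -0.72. Tnc, named after its value was seen, read 529 in the mutant and 891 in the wild-type, 1.68-fold lower. The other Tnc probe set had a log2 ratio of -1.12. 

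Markers of the cells that make collagens were read in the same RNA. Of 7 meningeal fibroblast markers, 6 were higher in the mutant, with a median of 0.46 and summed signals of 9596 in the mutant and 7289.7 in the wild-type; Dcn, Lum, Ogn and Fmod are also on the list of fiber proteins. Slc6a13, a transporter of meningeal fibroblasts, read 458 in the mutant and 273 in the wild-type. Endothelial markers were mostly lower, beside the higher signals of type IV collagen: 1 of 6 was higher, the median was -0.24 and the sums were 5194 in the mutant and 5659 in the wild-type. Of 7 mural markers 3 were higher, with sums of 8197 and 8644 and a median of -0.09. The mural sums were set mainly by Rgs5, at 5333 in the mutant and 5685 in the wild-type. Among the lower mural markers, Tagln read 84.4 in the mutant and 192 in the wild-type, 2.27-fold lower. Choroid plexus markers were higher in 4 of 5, with a median of 0.48; Folr1, a folate receptor, read 474 in the mutant and 206 in the wild-type, 2.30-fold higher. Their sums, set mainly by Ttr, were 22024 in the mutant and 23484 in the wild-type. In bulk RNA, fewer cells of a type and less RNA per cell cannot be told apart, and the part of these cells in the collagen differences was not tested.

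Oligodendrocyte markers were lower beside types IX and XI. Each of the 4 mature oligodendrocyte markers on the array was past 2-fold lower, with sums of 536 in the mutant and 22239.5 in the wild-type. The 3 precursor markers were lower too by their brightest probe sets, with sums of 1772 in the mutant and 5111 in the wild-type. Most of the difference between these sums came from Gpr17, at 123 in the mutant and 2259 in the wild-type. The paper counts Gpr17 among genes that rise as oligodendrocytes mature, so it is not a marker of precursors alone. Cspg4 read 168 in the mutant and 344 in the wild-type, 2.04-fold lower. Pdgfra read 1481 in the mutant and 2508 in the wild-type, and its 2 other probe sets had log2 ratios of -0.38 and 0.34, in opposite directions. Of 6 markers of bone and cartilage, Ibsp, Matn1, Chad and Comp lay under the level on both arrays. Acan read 59.7 in the mutant and 94.1 in the wild-type, and Sp7 74.5 and 57.4. The part of oligodendrocyte cells in the lower signals of types IX and XI was not tested.

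**Figure D4:**
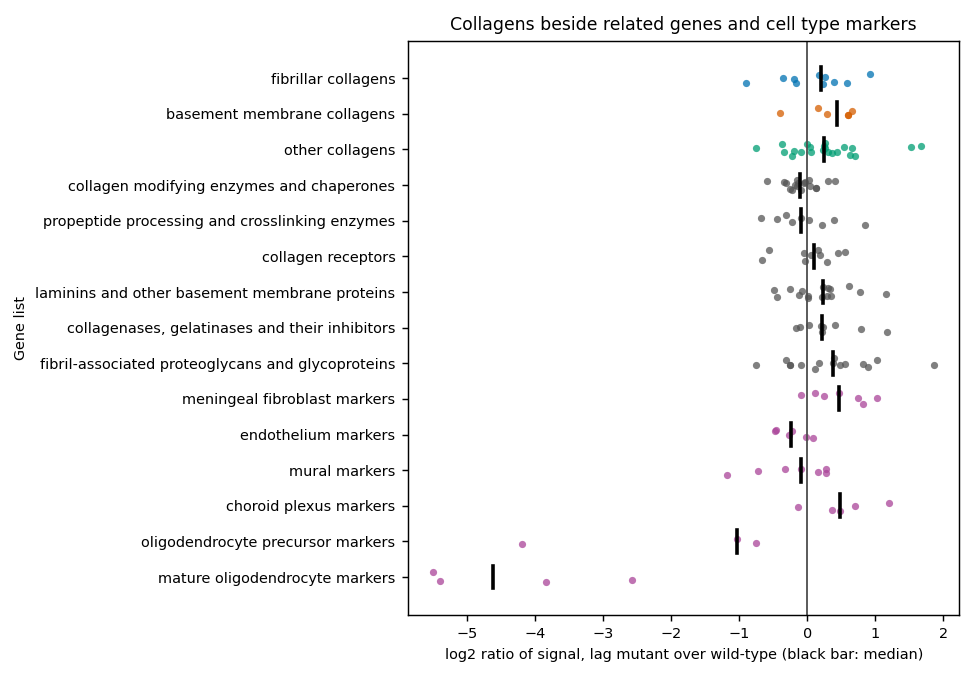
Log2 of the mutant signal over the wild-type signal for genes above the background level on at least 1 array in the 3 collagen classes, 6 lists of related genes and 6 lists of cell type markers; each point is a gene, spread vertically at random within its row, and the black bar is the median of the list. Medians are 0.20, 0.44 and 0.25 for fibrillar, basement membrane and other collagens, -0.11 for modifying enzymes and chaperones and 0.46 for meningeal fibroblast markers.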

How the data were processed

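RNA of P14 cerebrum from 1 lag mutant and 1 wild-type sample was hybridised to Affymetrix mouse arrays. The deposited values are linear intensities that the authors calculated per probe set with MAS5, default settings and global scaling. Their scaling target is not stated; leaving out 2% of probe sets at either end, both arrays averaged 500.0. Detection calls were not used. Per the labels, RNA was labelled by a 3′ method.

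Of the probe sets, 34958 were annotated with 1 gene, 932 with several and 9211 with none, and only the first were named. Identifiers of 34754 matched RefSeq GRCm38.p6. Promoter sequences came from the same RefSeq build. The gene value, background level and ratio are given with the results. Named genes are all collagen genes, the 3 brightest and any past 2-fold in each related list, and others marked as chosen later. The members and lists were chosen with earlier results of these data known. Alternatives changed the background level, probe set, normalization, fold and class borders. Code was tested on simulated data. Collagen protein sequences were not analysed here. Python 3.11.15, numpy 2.4.6 and pandas 2.3.3 were used. The 2 arrays limit the precision.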

Additional observations from a re-analysis of the deposited data

How the results depend on the processing

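No paired analysis was possible because there is 1 array per genotype. The medians of all collagens, of the fibrillar, basement membrane and other classes, of laminins, of collagenases and of fiber proteins kept their sign in every alternative, with the collagen median between 0.20 and 0.34 and the basement membrane median between 0.43 and 0.60. The median of all genes ranged from 0.0025 to 0.097, the highest under median scaling. Medians of 3 lists near 0 changed sign: modifying enzymes ranged from -0.14 to 0.018, processing enzymes from -0.16 to 0.39 and receptors from -0.13 to 0.19. A 99th percentile level left 25 collagen genes, 0 of them 2-fold higher; that count was 1 by the second probe set of a gene, 10 at 1.5-fold and 0 at 4-fold; 2-fold lower were 3 with no level (Col2a1, Col17a1 and Col20a1, all at or under the background level) and 2 at 1.5-fold. Col13a1 was at least 1.26-fold higher, a log2 ratio of 0.33, at the 99th percentile, and Col15a1 gave no value there, since both signals lay under that level. Col3a1 passed 2-fold by the mean over probe sets, with unique probe sets and under median scaling. Single ratios changed sign for Col6a4, Col12a1, Col14a1 and Col19a1. The chains of types IX and XI kept theirs wherever they gave a value. Over all genes, 31 were 2-fold higher and 67 lower at the 99th percentile, 1232 and 980 with no level and 51 and 83 by the second probe set, against 104 and 142 in the text. Interpretation of dim genes is limited by signal over background.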
